A study of Homo sapiens with 14 samples.

Results

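Expression of 31 genes that the tumour suppressor p53 is known to switch on was followed in 22Rv1, a long-established line of human prostate cancer cells, after 3 ways of disturbing FOXA1. FOXA1 is a forkhead transcription factor of luminal prostate cells, called a pioneer because it opens chromatin for the androgen receptor. The members were taken by name from a fixed list, whose rule uses no measured value but which was drawn up with earlier results of these data known, and all 31 matched a feature among the 57904 features of the knockdown table, the 57905 of the dTAG tables and the 20243 of the R219S table. TIGAR stood in the R219S table under its older name C12orf5. RNA sequencing gave 14 libraries in 7 groups of 2. Cells with a control hairpin (shCtrl) were set against cells with a hairpin against FOXA1 (shFOXA1), both delivered by lentivirus and both labelled wild type. Cells labelled FOXA1_dTAG carried FOXA1 with a degradation tag, whose protein is marked for destruction when a small molecule is added, and were sampled at 0 h, 1 h and 24 h. A further pair of groups in the same FOXA1_dTAG background was labelled WT and R219S, the latter carrying an amino acid substitution in the DNA-binding forkhead domain of FOXA1. Left unsaid in the labels are whether degrader was added to the WT and R219S cells and whether the tagged or mutant lines were single clones. There was no vehicle group at 1 h or at 24 h, so time in culture and handling cannot be told apart from the degrader at either time. Both shCtrl titles read 22Rv2, but the cell line label of those libraries is 22Rv1.

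p53 is a transcription factor held at a low level by the ubiquitin ligase MDM2, itself a p53 target, and by the related protein MDM4. DNA damage, ribosome stress and other insults release it, and it then binds paired half-sites in DNA and raises genes that stop the cell cycle, start apoptosis, repair DNA or adjust metabolism. CDKN1A, which encodes the p21 inhibitor of cyclin-dependent kinases, is its best known target, and through p21 the DREAM repressor complex turns down genes of DNA replication and mitosis. Many of these genes also answer to other regulators. By role, 8 of the members act in cell cycle and growth arrest, 13 in apoptosis, 5 in DNA repair and nucleotide supply, and 5 in metabolism and stress.

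The promoters of 26 of the members were matched in RefSeq (GRCh38.p14), from 250 bases before to 50 bases after the transcription start. RRM2B, PHLDA3, TNFRSF10B, GADD45A and TP53INP1 were not matched. Exact matches to the p53 half-site consensus, which reads alike on both strands, stood in 7 of the 26 members (26.9%) and in 8.06% of the 27305 genes of the table. Only DDB2 among these members held a full site, meaning a pair of half-sites with 0 to 13 bases between them, and 10 of the 35116 promoters (0.0285%) did. The 7 windows are shown because they hold a match to the half-site, on the strand of the gene and with the half-sites in capitals. The group itself was taken from a list of gene names.
PLK2 (chr5:58460199-58460228, minus strand): tggcgggacaAGACTTGCTTcccggccacg
SESN1 (chr6:109009018-109009047, minus strand): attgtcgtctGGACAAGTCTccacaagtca
FAS (chr10:88991299-88991328, plus strand): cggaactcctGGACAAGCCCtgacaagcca
DDB2 (chr11:47214975-47215004, plus strand): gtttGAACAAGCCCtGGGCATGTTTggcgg
RPS27L (chr15:63157517-63157546, minus strand): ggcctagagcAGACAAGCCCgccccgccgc
AEN (chr15:88621296-88621325, plus strand): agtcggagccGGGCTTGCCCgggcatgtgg
FDXR (chr17:74872986-74873015, minus strand): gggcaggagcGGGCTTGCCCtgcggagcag
The half-site began 132 bases before the start in PLK2, 122 in FAS, 59 in RPS27L, 49 in SESN1, 34 in AEN and 11 in FDXR, and the pair in DDB2 spanned bases 6 to 26 after the start. The forkhead core TGTTTAC, searched on both strands and overlapping none of the half-sites above, stood in 2 of the 26 members (7.69%) and in 4.19% of the genes. Those windows follow with the core in capitals, since FOXA1 is the forkhead factor disturbed here.
PERP (chr6:138107561-138107590, minus strand): agaacccagccTGTTTACcagcggccccgc
GDF15 (chr19:18386051-18386080, plus strand): ggtcattggagTGTTTACtctgcaggcagg
A match to letters is a description and not a measured site. No binding was measured in these libraries, and p53 also binds outside the windows searched.

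Library totals ran from 21.6 to 38.5 M counts. Levels below are counts-per-million (CPM) after TMM scaling within each table, given for replicate 1 and then replicate 2. Levels from different tables were not compared. Each log2 fold change carries its standard error (SE), and a gene was called at an adjusted p under 0.05 over all genes tested (edgeR quasi-likelihood F test, Benjamini-Hochberg). The labels do not say that replicates were separate cultures, so a p-value here reflects only how far these libraries spread. FOXA1 mRNA was 299 and 305 CPM in shFOXA1 against 402 and 435 in shCtrl, and 703 and 681 in R219S against 1019 and 1032 in WT. It was 171 and 168 CPM at 0 h and 203 and 195 at 24 h, and since the degrader acts on the protein these values do not measure its loss. Each of 10 luminal prostate markers had counts in all 14 libraries, although TMPRSS2 was at 0.7005 and 0.778 CPM in R219S. Summed endothelial markers (3 of 4 matched) reached at most 0.398 CPM and summed leukocyte markers (6 of 6) at most 3.48 CPM.

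MDM4, which holds p53 in check, was called higher in 3 of the comparisons, by 0.22 ± 0.065 in the knockdown, 0.31 ± 0.040 at 24 h and 0.38 ± 0.042 in R219S. These are mRNA values, and no protein was measured in these libraries.

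More of the targets were called higher than lower in the knockdown and at 1 h, and more lower than higher at 24 h and in R219S. At 1 h this order did not hold with the DESeq2 Wald test, which called 3 higher and 4 lower. In shFOXA1, 11 of the 31 members were called higher and 3 lower, where 11.3% of all 19128 genes tested were called higher and 12.3% lower (23.6% in either direction). At 1 h of degradation 9 were higher and 4 lower, against 10.7% and 9.12% of 19397 genes (19.8% in either direction). At 24 h 3 were higher and 17 lower, against 22.1% and 24.8% of 19607 genes (46.9%). In R219S 2 were higher and 19 lower, against 30.5% and 31.6% of 13990 genes (62.1%). As shares of the 31, the members called higher were 35.5%, 29.03%, 9.68% and 6.45% in that order, and those called lower were 9.68%, 12.9%, 54.8% and 61.3%. Each of the 31 passed the filter on low counts in every fit, except that 30 did in R219S when at least 1 CPM in 2 libraries was required. The median log2 fold change of the members was 0.17 in the knockdown, 0.019 at 1 h, -0.17 at 24 h and -0.27 in R219S, while the median of all genes tested lay between 0.00074 and 0.0100. The 1 h and 24 h comparisons share the 0 h libraries.

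**Figure D1:**
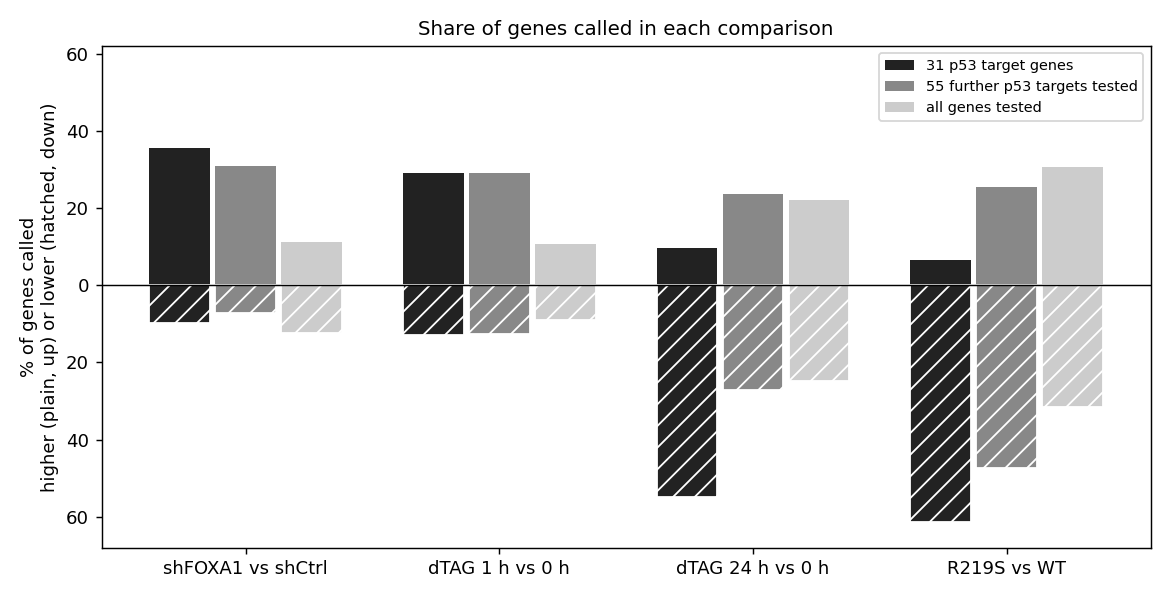
Percent of genes called higher (plain bars, upward) or lower (hatched bars, downward) in each comparison, for the 31 p53 target genes, 55 further p53 targets and all genes tested. Among the 31 genes the higher calls made up 35.5% in shFOXA1, and the lower calls 54.8% at 24 h and 61.3% in R219S.

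The share of each library taken by the members moved as well. Abundant members such as CDKN1A and TNFRSF10B weigh most in such a share. Scaled to the library total alone, the 31 genes together took 2204 and 2287 CPM in shCtrl and 2531 and 2588 in shFOXA1. They took 2416 and 2417 at 0 h, 2390 and 2389 at 1 h, and 2218 and 2221 at 24 h. In the last pair of groups they took 2586 and 2603 in WT and 1926 and 1934 in R219S. Both shFOXA1 libraries thus lay above both controls, and both 24 h and both R219S libraries lay below theirs, while the 1 h libraries lay just below the 0 h libraries. For single members, both treated libraries lay above both controls for 20 genes and below for 3 in the knockdown, 13 and 10 at 1 h, 6 and 20 at 24 h, and 4 and 21 in R219S. Over all genes tested, the libraries lay apart in this way for 31.7% above and 31.7% below in the knockdown, 28.8% and 27.7% at 1 h, 35% and 35.9% at 24 h, and 39.8% and 39.7% in R219S.

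The share of counts from mitochondrial genes also moved with the groups. It was 8.33% and 8.11% in shCtrl and 9.32% and 9.67% in shFOXA1, 10.9% and 10.6% at 0 h, 9.53% and 9.38% at 1 h and 8.92% and 8.604% at 24 h, and 4.403% and 4.408% in WT against 4.85% and 4.88% in R219S. Of 13 mitochondrial mRNAs, 8 rose in the knockdown and 11 in R219S with none called lower, and all 13 fell at 1 h and at 24 h. The part of this shift in the changes of the members was not tested.

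How firmly the counts stand differed between comparisons. In the knockdown the 11 higher calls became 4 or 5 when shCtrl replicate 1 or 2 was left out, and 17 when shFOXA1 replicate 1 was. CDKN1A, BTG2, CCNG1 and SPATA18 kept a higher call with each library left out in turn, and PMAIP1 and PERP a lower one. At 1 h the 9 higher calls became 5 without either 1 h library and 3 with the DESeq2 Wald test, and 7 higher with 5 lower when an offset removed the trends with GC content and transcript length. BBC3, GADD45A, PMAIP1 and PHLDA3 kept a higher call there with each library left out, and GDF15, TP53INP1 and AEN a lower one. At 24 h all 3 higher and 12 of the 17 lower calls held with each library left out, and the offset gave 8 higher and 15 lower. In R219S neither higher call held with each library left out, while 16 of the 19 lower calls did. The DESeq2 Wald test lost the calls of FAS and FDXR in the knockdown, of BAX, BTG2, CDKN1A, PMAIP1, SESN1 and SESN2 at 1 h, of FDXR, MDM2, POLH, SPATA18 and TIGAR at 24 h, and of BAX, FDXR, PPM1D and RRM2B in R219S. The offset ended the calls of FDXR in the knockdown, of BAX, BTG2, CDKN1A and SESN2 at 1 h, of POLH and SPATA18 at 24 h, and of MDM2 in R219S.

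**Figure D2:**
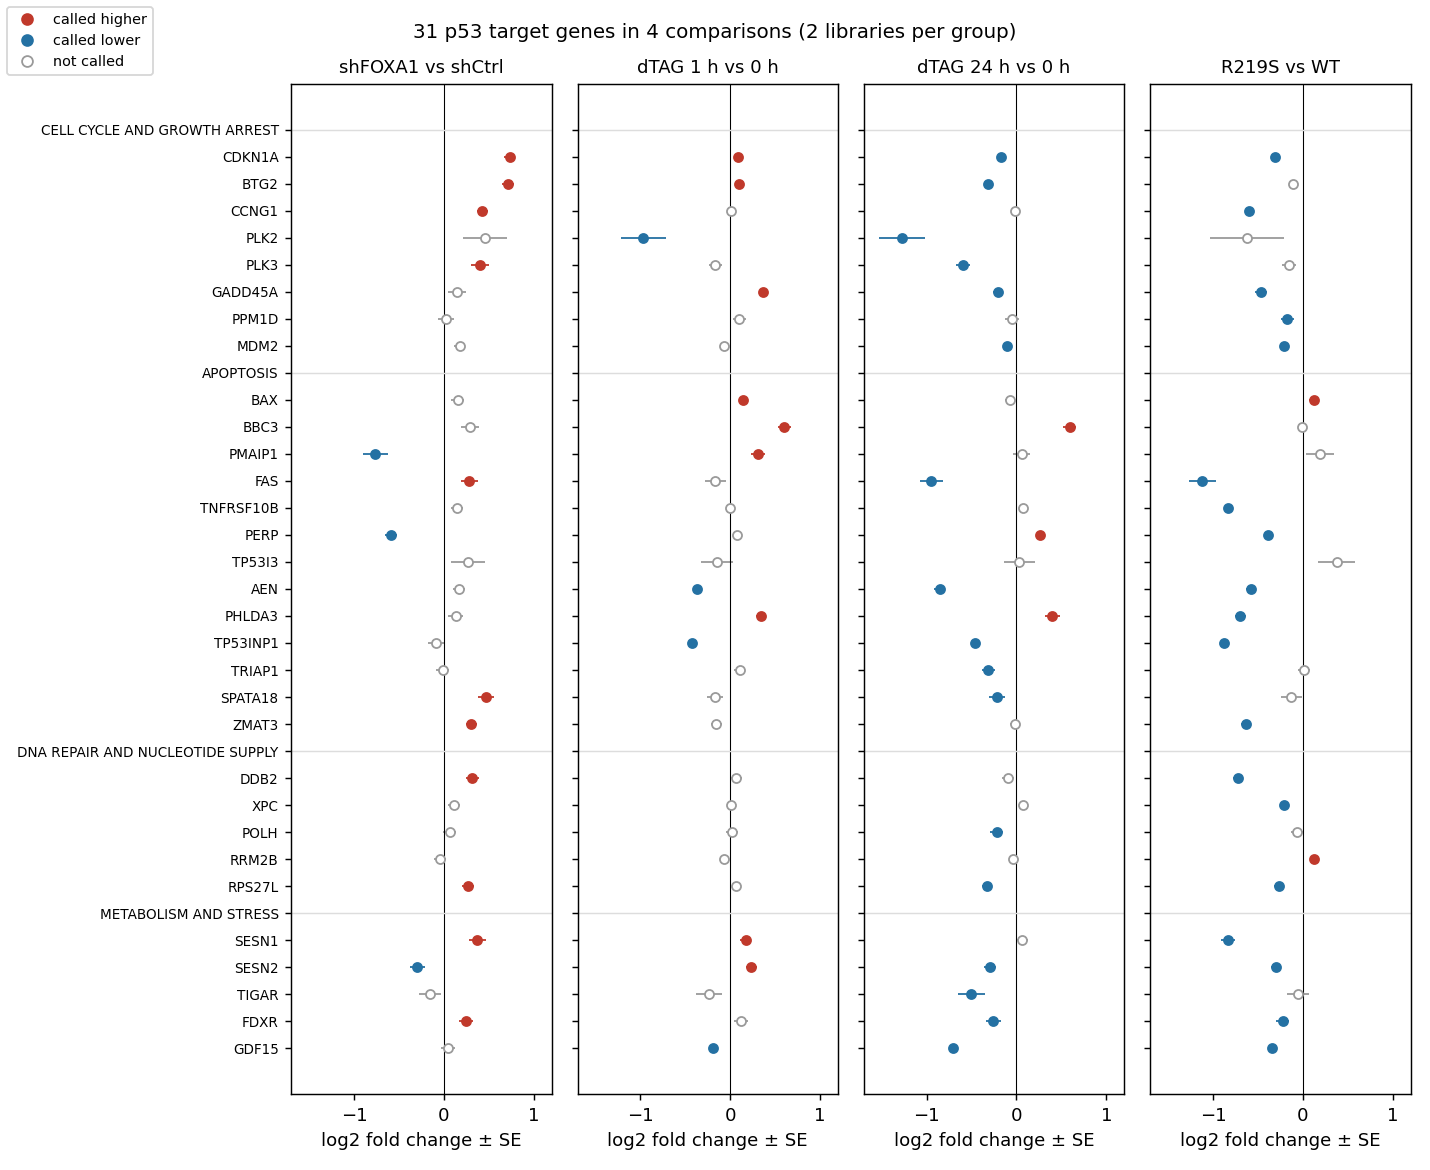
Log2 fold change with its SE for each of the 31 genes, ordered by role, in the 4 comparisons. Filled red points were called higher, filled blue points called lower and open points not called. CDKN1A goes from 0.73 in shFOXA1 to -0.17 at 24 h and -0.31 in R219S.

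Among the 8 genes of cell cycle and growth arrest, 4 rose and none fell in the knockdown, 3 rose and 1 fell at 1 h, 6 fell at 24 h, and 5 fell in R219S, with no member called higher in the last 2. Of all genes tested, 11.3% were called higher and 12.3% lower in the knockdown, and 10.7% and 9.12% at 1 h. At 24 h 22.1% and 24.8% were, and in R219S 30.5% and 31.6%. These shares also stand beside the later counts by role and by list. CDKN1A stood at 250.1 and 273 CPM in shCtrl and 434 and 434 in shFOXA1, a 1.66-fold rise of 0.73 ± 0.063 (adjusted p = 2.00e-05) on the log2 scale. It stood at 319 and 310.0 CPM at 0 h, 335 and 333 at 1 h and 285 and 274 at 24 h. In WT it stood at 227 and 229 CPM and in R219S at 187 and 182. The libraries of each pair of groups did not overlap in any of these comparisons. The change at 1 h was 0.09 ± 0.029 (adjusted p = 0.0277), and the offset for GC content and length turned it to -0.015 (adjusted p = 0.776). The 1 h calls of CDKN1A and of BTG2 below were each lost without the second 0 h library or either 1 h library. CDKN1A fell by 0.17 ± 0.037 at 24 h (adjusted p = 0.000338) and by 0.31 ± 0.040 in R219S (adjusted p = 2.75e-13).

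BTG2, an antiproliferative adaptor of mRNA deadenylation, was at 41.7 and 40.6 CPM in shCtrl and 67.8 and 66.8 in shFOXA1, a rise of 0.71 ± 0.067 (adjusted p = 3.54e-05). It was at 182 and 174 CPM at 0 h, 189.7 and 190.0 at 1 h and 148 and 138 at 24 h, so the 1 h libraries were the highest of the 6 and the 24 h libraries the lowest. The changes against 0 h were 0.09 ± 0.033 (adjusted p = 0.0337) at 1 h and -0.31 ± 0.042 (adjusted p = 1.80e-07) at 24 h. In R219S BTG2 was at 63.9 and 61.9 CPM against 67.8 and 67.5 in WT, and the difference of -0.11 ± 0.051 was not called (adjusted p = 0.0598). The offset for GC content and length called BTG2 lower there (adjusted p = 0.0333). CCNG1, the cyclin G1 that recruits a phosphatase to MDM2, was at 131 and 130.1 CPM in shCtrl and 169 and 183 in shFOXA1, a rise of 0.43 ± 0.063 (adjusted p = 0.000559). It lay between 152 and 158 CPM in all 6 dTAG libraries, and its change at 24 h, -0.02 ± 0.039, turned to 0.18 (adjusted p = 2.51e-05) under the offset for GC content and length. In R219S CCNG1 was at 104 and 103 CPM against 152 and 159.8, a change of -0.60 ± 0.044 (adjusted p = 1.93e-36) with no overlap between the libraries.

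The polo-like kinases PLK2 and PLK3, stress kinases that are also induced by serum and growth factors, fell during degradation. PLK2 was scarce, at 2.66 and 2.45 CPM at 0 h, 1.48 and 1.13 at 1 h and 0.888 and 1.22 at 24 h. Its changes against 0 h were -0.97 ± 0.25 (adjusted p = 0.00220) and -1.27 ± 0.26 (adjusted p = 0.000119), and the 1 h call was lost without the second 1 h library (adjusted p between 0.0537 and 0.255 for the 5 members that lost a call there). It was not called in the knockdown, at 2.02 and 2.53 CPM against 1.73 and 1.58 in shCtrl, nor in R219S, at 0.654 and 0.428 against 1.06 and 0.488 in WT, where the replicates of WT differed more than the groups. PLK3 was at 24.4 and 24.7 CPM at 0 h, 21.1 and 22.6 at 1 h and 15.4 and 17.05 at 24 h, a fall of 0.59 ± 0.080 by 24 h (adjusted p = 2.55e-07). In shFOXA1 it was at 18.4 and 20.3 CPM against 14.2 and 15.2, a rise of 0.40 ± 0.10 (adjusted p = 0.0152). That call was lost without either shCtrl library, with adjusted p from 0.0504 to 0.365 over the members that lost theirs. The R219S libraries were at 20.1 and 20.04 CPM against 22.1 and 22.4 in WT, which was not called (adjusted p = 0.0836).

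MDM2, the ligase that closes the p53 feedback loop, was at 243 and 250.3 CPM in shCtrl and 268 and 289.6 in shFOXA1, a difference of 0.18 ± 0.062 that was not called (adjusted p = 0.0585). MDM2 was called higher there with at least 1 CPM in 2 libraries (adjusted p = 0.0468). It was also called without the filter on low counts and under the offset for GC content and length. It was at 232 and 246 CPM at 0 h, 228 and 228 at 1 h and 220.4 and 222 at 24 h, and fell by 0.11 ± 0.039 at 24 h (adjusted p = 0.0210). It was at 110.0 and 114 CPM in R219S against 128 and 131 in WT, a fall of 0.20 ± 0.044 (adjusted p = 1.17e-05). The 24 h call was lost when a library was left out (without the second 0 h library or either 24 h library) and with DESeq2 (adjusted p = 0.0645), and the R219S call under the offset for GC content and length (adjusted p = 0.123). GADD45A, a growth arrest and DNA damage sensor, changed by 0.36 ± 0.046 at 1 h, -0.21 ± 0.052 at 24 h and -0.46 ± 0.067 in R219S, each called. PPM1D, a phosphatase that switches off the p53 response, was called in R219S alone among the 4 comparisons, at -0.17 ± 0.072 (adjusted p = 0.0275), and that call was lost without WT replicate 1 or R219S replicate 1 and with DESeq2.

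**Figure D3:**
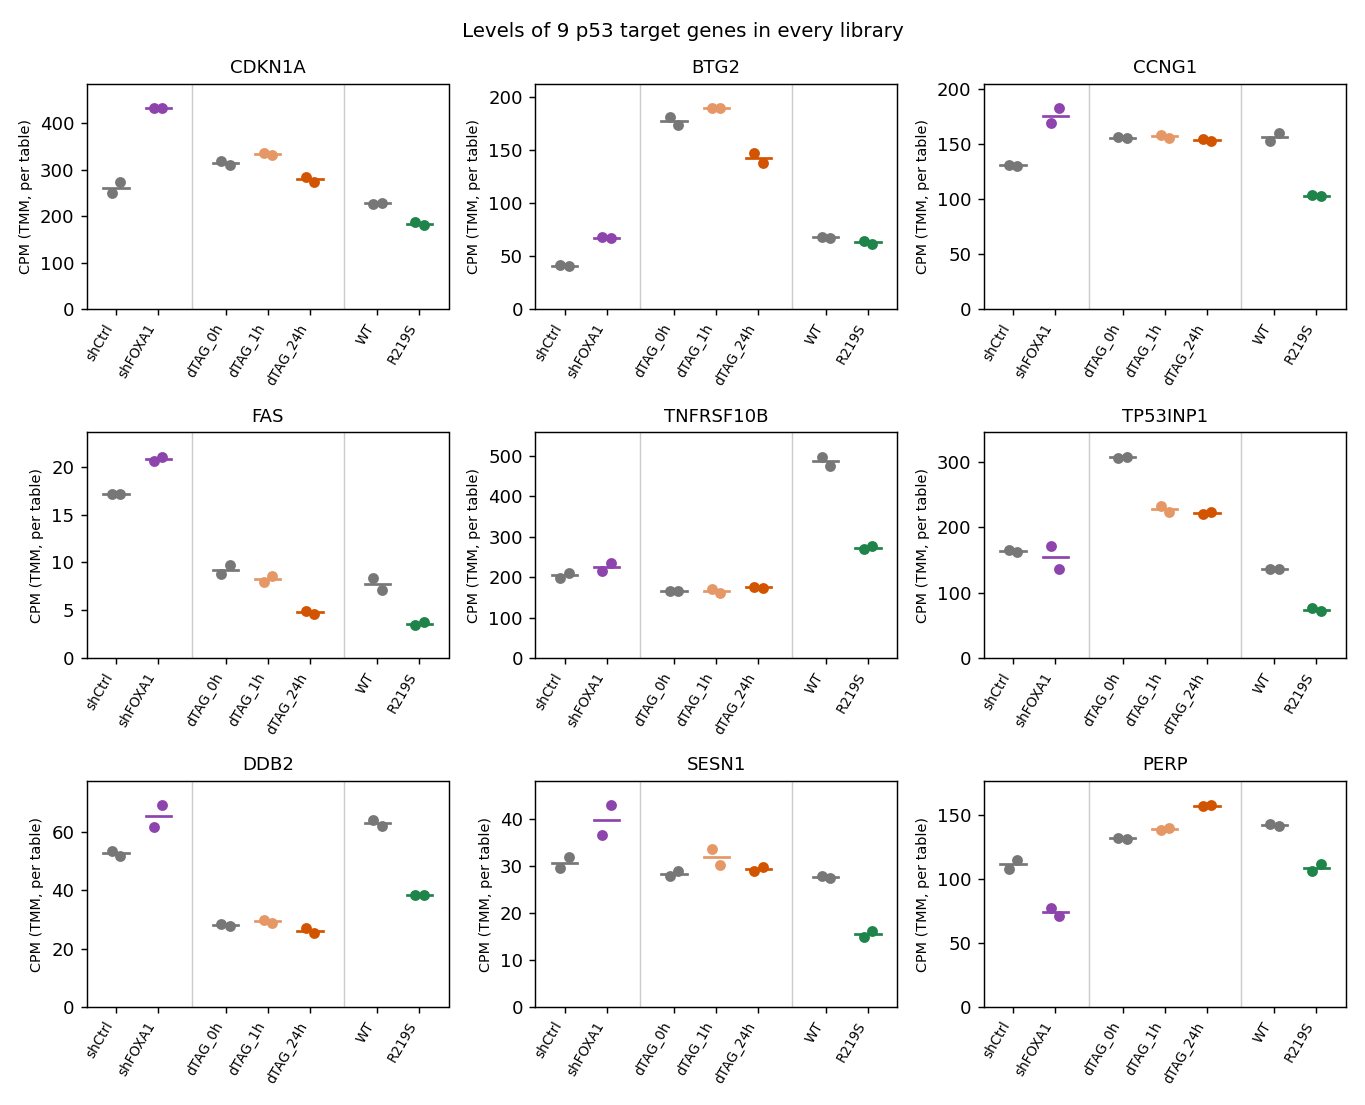
Levels of 9 of the genes in every library, in CPM after TMM scaling within a table. Points are libraries and bars are means of 2, and vertical lines separate tables, between which levels were not compared. The WT and R219S libraries of FAS, TNFRSF10B, TP53INP1, DDB2 and SESN1 do not overlap.

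The 13 apoptosis genes moved in both directions. In the knockdown 3 rose and 2 fell, at 1 h 4 rose and 2 fell, at 24 h 3 rose and 5 fell, and in R219S 1 rose and 7 fell. Of the death receptors, FAS was at 17.1 and 17.1 CPM in shCtrl and 20.6 and 21.1 in shFOXA1, at 8.76 and 9.74 at 0 h, 7.95 and 8.56 at 1 h and 4.96 and 4.62 at 24 h, and at 8.404 and 7.095 in WT against 3.41 and 3.78 in R219S. It fell to 0.518 of the 0 h level by 24 h, -0.95 ± 0.13 (adjusted p = 2.49e-07), and to 0.461 of the WT level in R219S, -1.12 ± 0.15 (adjusted p = 3.95e-13). The knockdown rise, 0.28 ± 0.095 (adjusted p = 0.0479), was lost without either shCtrl library, with DESeq2, with its size factors, without the filter on low counts, and under the replicate block (adjusted p = 0.0587). TNFRSF10B, the TRAIL receptor DR5, was at 199 and 209.7 CPM in shCtrl and 216 and 236 in shFOXA1, and ran from 161 to 176 CPM over the 6 dTAG libraries. It was called in R219S alone of the 4 comparisons, at 269 and 278 CPM against 499 and 476 in WT, a change of -0.83 ± 0.039 (adjusted p = 2.15e-77).

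BBC3, PMAIP1 and BAX belong to the BCL2 family and act at the mitochondrion. BBC3, which encodes the BH3-only protein PUMA, was at 18.3 and 17.99 CPM at 0 h, 26.3 and 28.8 at 1 h and 26.5 and 28.1 at 24 h, rises of 0.60 ± 0.074 (adjusted p = 2.14e-10) and 0.59 ± 0.076 (adjusted p = 9.37e-08). It was at 40.2 and 47.8 CPM in shFOXA1 against 33.5 and 38.3 in shCtrl (adjusted p = 0.0527), and at 102 and 97.4 in R219S against 96.8 and 103 in WT (adjusted p = 0.939). The knockdown difference was called under the replicate block (adjusted p = 0.0181), without the filter on low counts and under the offset for GC content and length. BBC3 was thus above both 0 h libraries in all 4 libraries at 1 h and 24 h, although its change at 24 h was not called different from that in the knockdown (adjusted p = 0.0855). PMAIP1, the BH3-only protein NOXA, was at 6.48 and 5.53 CPM in shFOXA1 against 10.1 and 10.3 in shCtrl, 0.588 of the control level at -0.77 ± 0.14 (adjusted p = 0.00222). It rose by 0.31 ± 0.081 (adjusted p = 0.00247) at 1 h, from 15.9 and 16.8 to 19.98 and 20.6 CPM, and was at 15.6 and 18.4 at 24 h. The 1 h call was lost with DESeq2 (adjusted p = 0.0553). In WT and R219S it was at 4.33 and 3.83 and at 4.997 and 4.44 CPM, a difference of 0.19 ± 0.16 that was not called. BAX, the pore-forming effector, was called at 0.15 ± 0.052 at 1 h and 0.13 ± 0.054 in R219S, and the 1 h call was lost without the first 0 h library or either 1 h library, the R219S call without WT replicate 2 or R219S replicate 1, and both with DESeq2.

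PERP, a membrane protein of desmosomes and of p53-dependent death, fell in the knockdown and in R219S but rose at 24 h. It was at 77.4 and 71.00 CPM in shFOXA1 against 108 and 115 in shCtrl, a fall of 0.59 ± 0.068 (adjusted p = 0.000119). It was at 132 and 132 CPM at 0 h, 138 and 140.1 at 1 h and 157 and 158 at 24 h, a rise of 0.26 ± 0.040 (adjusted p = 2.44e-06). The R219S libraries were at 106 and 112 CPM against 143 and 141 in WT, a fall of 0.38 ± 0.044 (adjusted p = 1.35e-16). Its promoter window holds the forkhead core shown above. PHLDA3, an inhibitor of AKT, was at 39.8 and 36.1 CPM at 0 h, 46.3 and 50.2 at 1 h and 44.7 and 55.3 at 24 h, rises of 0.35 ± 0.056 and 0.40 ± 0.083 (adjusted p = 8.24e-07 and 0.000748). It was at 36.1 and 32.2 CPM in R219S against 54.5 and 55.97 in WT, a fall of 0.70 ± 0.060 (adjusted p = 1.41e-27), and at 58.02 and 59.4 in shFOXA1 against 49.2 and 58.1 in shCtrl, not called (adjusted p = 0.288).

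AEN, a nuclease of apoptotic DNA breakdown whose promoter holds a half-site, fell stepwise in the dTAG cells, from 64.2 and 61.98 CPM at 0 h to 46.1 and 51.9 at 1 h and 36.3 and 33.4 at 24 h. The changes against 0 h were -0.36 ± 0.050 (adjusted p = 1.45e-08) and -0.86 ± 0.057 (adjusted p = 5.41e-14). It was also lower in R219S, at 39.1 and 39.9 CPM against 59.2 and 58.4 in WT, a change of -0.57 ± 0.057 (adjusted p = 2.93e-21). In shFOXA1 it was at 89.3 and 87.9 CPM against 76.8 and 80.8 in shCtrl, a difference of 0.17 ± 0.063 that was not called (adjusted p = 0.0729). TP53INP1, which helps p53 reach its death genes and takes part in autophagy, was at 306 and 309 CPM at 0 h, 233 and 224 at 1 h and 221 and 224 at 24 h. Most of that fall was in place at 1 h, at -0.43 ± 0.030 (adjusted p = 7.14e-21) against -0.47 ± 0.037 at 24 h (adjusted p = 3.05e-12), and the 24 h and 1 h groups were not called apart (adjusted p = 0.353). In R219S TP53INP1 was at 75.8 and 72.5 CPM against 136 and 137 in WT, 0.544 of its level at -0.88 ± 0.046 (adjusted p = 5.72e-64). The shFOXA1 libraries, at 171 and 137 CPM, straddled the shCtrl libraries, at 165 and 163.

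ZMAT3, an RNA-binding regulator of splicing, rose in shFOXA1 to 94.4 and 97.3 CPM from 77.4 and 78.1 in shCtrl, by 0.30 ± 0.062 (adjusted p = 0.00424), a call lost without either shCtrl library. It was at 41.6 and 40.1 CPM at 0 h, 34.2 and 39.2 at 1 h and 40.03 and 40.5 at 24 h, with neither time called. At 1 h it was called lower with DESeq2 size factors, with at least 1 CPM in 2 libraries and under the replicate block. It was at 38.7 and 42.5 CPM in R219S against 62.4 and 64.05 in WT, a change of -0.63 ± 0.056 (adjusted p = 4.23e-26). SPATA18, which sorts damaged mitochondrial proteins for removal, rose by 0.47 ± 0.085 in the knockdown and fell by 0.21 ± 0.086 at 24 h. TRIAP1, an inhibitor of apoptosis, fell by 0.31 ± 0.072 at 24 h. The 24 h call of SPATA18 was lost without either 0 h library or the second 24 h library, and that of TRIAP1 without the second 0 h library. TP53I3, an oxidoreductase, lay between 2.02 and 4.35 CPM in all 14 libraries and was the member called in none of the 4 comparisons.

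Of the 5 genes of DNA repair and nucleotide supply, 2 rose in the knockdown, none was called at 1 h, 2 fell at 24 h, and 3 fell and 1 rose in R219S. DDB2, the damage sensor of nucleotide excision repair whose promoter holds the paired half-sites, was at 53.5 and 51.9 CPM in shCtrl and 61.9 and 69.2 in shFOXA1, a rise of 0.31 ± 0.074 (adjusted p = 0.00893) that was lost without either shCtrl library. It ran from 25.4 to 29.9 CPM over the 6 dTAG libraries, with neither time called. In R219S it was at 38.6 and 38.5 CPM against 64.4 and 62.2 in WT, 0.608 of its level at -0.72 ± 0.057 (adjusted p = 4.23e-32). The other genes moved less. XPC, another damage sensor of that pathway, fell by 0.20 ± 0.047 in R219S, POLH, the polymerase that reads through ultraviolet damage, by 0.22 ± 0.068 at 24 h, and RPS27L, a ribosomal protein relative of RPS27, by 0.33 ± 0.054 at 24 h and 0.27 ± 0.059 in R219S. The 24 h call of POLH was lost with DESeq2 (adjusted p = 0.0548) and under the offset (adjusted p = 0.0616). RPS27L rose by 0.27 ± 0.066 in the knockdown, a call lost without either shCtrl library, and its R219S call was lost without WT replicate 1. RRM2B, the p53-inducible subunit of ribonucleotide reductase, was called higher in R219S by 0.13 ± 0.048, a call lost without either WT library or R219S replicate 2. Its uncalled 24 h change of -0.04 ± 0.044 became 0.14 (adjusted p = 0.0028) under the offset for GC content and length.

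Of the 5 genes of metabolism and stress, 2 rose and 1 fell in the knockdown, 2 rose and 1 fell at 1 h, and 4 fell both at 24 h and in R219S. SESN1, a sestrin that restrains the growth kinase mTORC1 and whose promoter holds a half-site, was at 29.6 and 31.8 CPM in shCtrl and 36.7 and 42.9 in shFOXA1, a rise of 0.37 ± 0.092 (adjusted p = 0.0117) that was lost without shCtrl replicate 1. It was at 27.8 and 28.9 CPM at 0 h, 33.6 and 30.3 at 1 h and 29.04 and 29.9 at 24 h, with the 1 h change of 0.17 ± 0.064 called and the 24 h change not, and the 1 h call was lost without the first library of either group. The R219S libraries were at 14.9 and 16.1 CPM against 27.8 and 27.5 in WT, 0.563 of its level at -0.83 ± 0.079 (adjusted p = 6.50e-23). Its relative SESN2, which is also raised by the amino acid stress factor ATF4, and CDKN1A were the only members called in all 4 comparisons. The share of all genes called in all 4 was not computed. The 1 h calls of both members were lost with DESeq2 and under the offset for GC content and length. SESN2 changed by -0.30 ± 0.085 in the knockdown, 0.23 ± 0.059 at 1 h, -0.30 ± 0.068 at 24 h and -0.29 ± 0.056 in R219S. The knockdown call was lost without shCtrl replicate 2 and the 1 h call without the second 1 h library, with DESeq2 (adjusted p = 0.0631) and under the offset for GC content and length (adjusted p = 0.115).

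GDF15, a secreted stress cytokine whose promoter holds the other forkhead core, was at 157 and 147 CPM at 0 h, 135 and 132 at 1 h and 93.97 and 91.9 at 24 h. GDF15 fell by 0.19 ± 0.036 and then 0.71 ± 0.043 against 0 h (adjusted p = 2.13e-05 and 6.67e-15), with no overlap between the 3 groups. In R219S it was at 248 and 246 CPM against 302 and 323 in WT, a fall of 0.34 ± 0.039 (adjusted p = 1.83e-16). The shFOXA1 libraries, at 58.7 and 60.4 CPM, lay within the range of shCtrl, at 53.2 and 62.2. TIGAR, which lowers glycolytic flux, was scarce in the dTAG cells, at 5.66 and 6.72 CPM at 0 h, 4.699 and 5.84 at 1 h and 3.83 and 4.89 at 24 h. Its 24 h change of -0.50 ± 0.15 (adjusted p = 0.00642) was lost without the second 0 h library, without the first 24 h library and with DESeq2. TIGAR was not called in shFOXA1, at 12.2 and 11.2 CPM against 12.04 and 14.04, nor in R219S, at 7.75 and 6.69 against 8.04 and 6.72. FDXR, the reductase that feeds electrons to mitochondrial P450 enzymes, rose by 0.24 ± 0.077 in the knockdown and fell by 0.26 ± 0.085 at 24 h and 0.22 ± 0.070 in R219S. With DESeq2 each of these calls was lost, and so was the knockdown call without either shCtrl library, the 24 h call without the first 0 h or second 24 h library, and the R219S call without WT replicate 2 or R219S replicate 1.

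Part of the movement in the dTAG cells came after 1 h. In a joint fit of the 6 dTAG libraries, 15 of the members were lower at 24 h than at 1 h and PERP alone was higher, where 24.5% of 20027 genes were called lower and 21.2% higher (45.7% in either direction). The largest differences from 1 h to 24 h were FAS at -0.79 ± 0.13, GADD45A at -0.57 ± 0.048, SESN2 at -0.53 ± 0.065 and GDF15 at -0.52 ± 0.040. GADD45A ran from 56.6 and 59.4 CPM at 0 h up to 73.7 and 75.4 at 1 h and down to 49.9 and 50.4 at 24 h, and so crossed its starting level. BBC3, PHLDA3 and TP53INP1, each called at 1 h, showed differences from 1 h to 24 h of -0.01 ± 0.070, 0.05 ± 0.090 and -0.04 ± 0.034, none called. With the offset for GC content and length, 13 were lower and 4 higher.

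**Figure D4:**
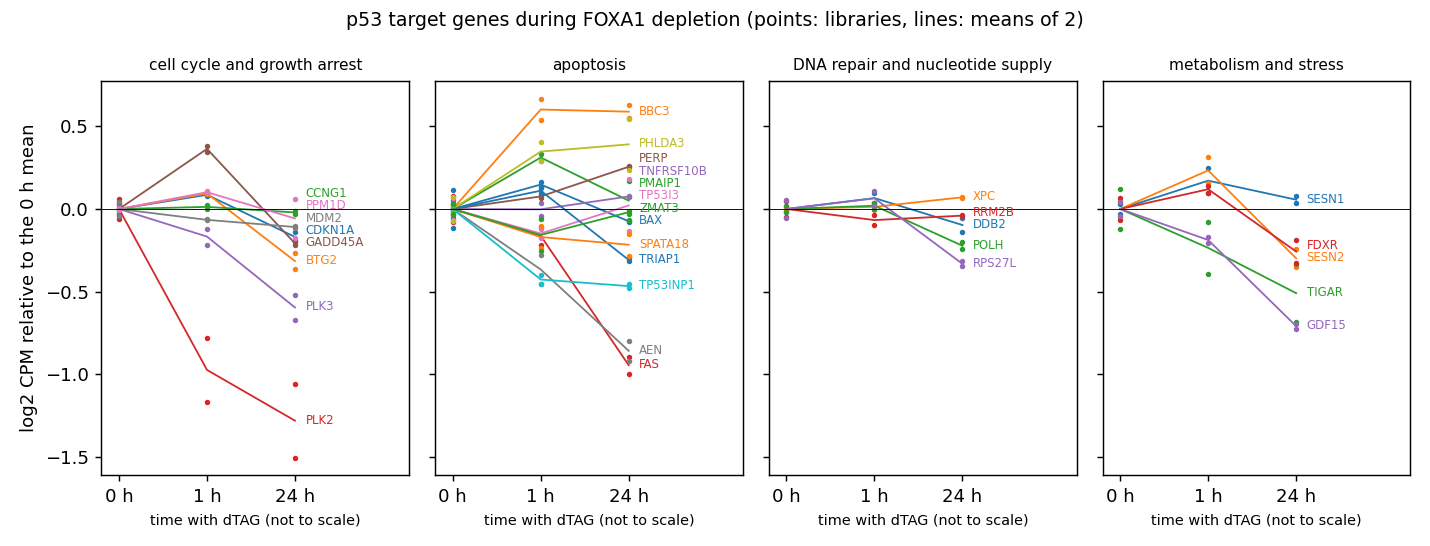
Log2 CPM of each gene relative to its 0 h mean at 0 h, 1 h and 24 h of dTAG treatment, by role, with time not to scale. Points are libraries and lines join means of 2. BBC3 rises by 1 h and stays, GADD45A rises and then falls, and FAS, AEN and GDF15 reach their lowest level at 24 h.

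Immediate early genes, which answer within minutes to growth factors and handling, fell with the 0 h libraries as reference. Of 15 listed, 12 fell at 1 h and 12 at 24 h, with FOS at 417 and 396 CPM at 0 h, 8.87 and 8.18 at 1 h and 9.43 and 8.33 at 24 h. FOSB changed by -6.80 ± 0.055 at 1 h and EGR3 by -6.68 ± 0.070. PLK2, PLK3 and BTG2 can be induced by the same stimuli, and the part of this shift in their changes was not tested. The comparison of 24 h with 1 h does not use the 0 h levels, and there 4 of the 15 early genes fell and 2 rose.

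The change under the hairpin differed from that at 24 h and from that in R219S for 16 of the 31 members when the difference itself was tested, and 12 of these held in both tests with each library left out. A fit of the change at 24 h minus the change in the knockdown called 17 members lower and 2 higher, against 13.2% and 9.45% of 20795 genes (22.7% in either direction). The change in R219S minus that in the knockdown called 20 lower and 1 higher, against 22.1% and 19.3% of 14288 genes (41.4%). CDKN1A differed by -0.89 ± 0.073 and -1.06 ± 0.069 in the 2 tests, BTG2 by -1.01 ± 0.077 and -0.84 ± 0.079, and FAS by -1.22 ± 0.15 and -1.42 ± 0.17. PMAIP1 differed the other way, by 0.83 ± 0.17 and 0.94 ± 0.21, and PERP did at 24 h, by 0.86 ± 0.077. Both tests use the same knockdown libraries, so their calls are not independent. The share of all genes called in both tests was not computed, so the 16 members have no such share beside them. These fits set together tables that were counted separately. The hairpin lines and the tagged lines differ in construction and in time under treatment, which cannot be told apart from the mode of FOXA1 disturbance. The extent of FOXA1 loss may differ as well. FOXA1 mRNA was at 72.1% of shCtrl in shFOXA1 and 67.5% of WT in R219S, and no protein was measured in these libraries.

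By call, 7 of the members that rose in shFOXA1 fell at 24 h, which is 63.6% of the 11 and 41.2% of the 17, near the 54.8% of all 31 members that fell at 24 h. They were CDKN1A, BTG2, PLK3, FAS, SPATA18, RPS27L and FDXR. In R219S 8 of the 11 (72.7%) fell, 42.1% of the 19 lower there, namely CDKN1A, CCNG1, FAS, ZMAT3, DDB2, RPS27L, SESN1 and FDXR, beside 61.3% of all 31. Over all genes tested in both comparisons, 14.6% of those higher in shFOXA1 fell at 24 h and 29.2% fell in R219S. CDKN1A, FAS, RPS27L and FDXR were in both sets. No member that rose in shFOXA1 was called higher at 24 h or in R219S. Only 3 of the 31 were called higher at 24 h and 2 in R219S, so few could overlap. The matching share over all genes was not computed.

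**Figure D5:**
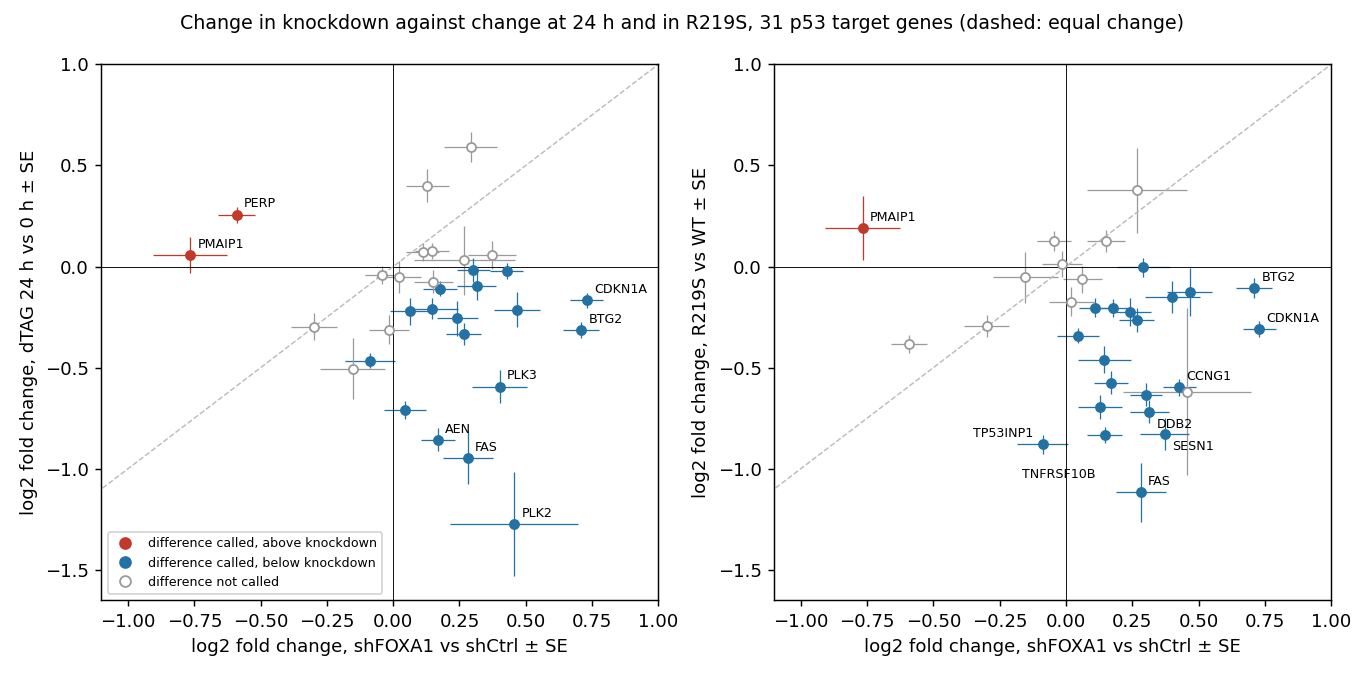
Log2 fold change in shFOXA1 (x axis) against that at 24 h (left) and in R219S (right), each with its SE, for the 31 genes. The dashed line marks equal change, filled blue points had a change called below that of the knockdown and red points above it. Points below the line to the right of 0 include CDKN1A, BTG2 and FAS in both panels.

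The members lower at 24 h and those lower in R219S overlapped in part. Lower in both were CDKN1A, GADD45A, MDM2, FAS, AEN, TP53INP1, RPS27L, SESN2, FDXR and GDF15, which are 58.8% of the 17 genes lower at 24 h and 52.6% of the 19 lower in R219S, beside 61.3% and 54.8% of all 31 members. Over all genes tested in both comparisons, 40.1% of those lower at 24 h were lower in R219S, and 40.3% the other way. Tested against each other, the R219S change was below the 24 h change for 12 members and above it for 5, where 27% and 28.8% of 14302 genes were called lower and higher (55.9% in either direction). The largest differences were PHLDA3 at -1.12 ± 0.11, TNFRSF10B at -0.93 ± 0.054, SESN1 at -0.91 ± 0.10, PERP at -0.66 ± 0.058, DDB2 at -0.65 ± 0.088, ZMAT3 at -0.64 ± 0.082, BBC3 at -0.62 ± 0.082 and CCNG1 at -0.60 ± 0.058. On the other side stood PLK3 at 0.42 ± 0.11 and GDF15 at 0.34 ± 0.058, which fell more at 24 h. The fall of FAS was not called different, at -0.19 ± 0.20 (adjusted p = 0.430).

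The R219S and WT libraries also differed in genes outside the prostate lineage. Summed fibroblast markers (6 of 6 matched) were 215 to 224 CPM in WT and 509 to 520 CPM in R219S. COL3A1 made up most of that rise, at 7.03 and 5.86 CPM in WT and 276 and 281 in R219S. LUM was at 170.2 and 164 CPM in WT and 180.3 and 186 in R219S. PDGFRB was at most 0.722 CPM in any library, and COL1A2 had no counts in these 4 libraries. Of the 10 luminal markers 7 fell and 2 rose in R219S, and their summed level was 8175 and 7966 CPM against 7357 and 7362 in WT. KRT8 and KRT18, the luminal keratins, were higher by 0.27 ± 0.034 and 0.36 ± 0.037, while KLK3 was at 3.596 and 3.697 CPM against 20.1 and 21.9. The part of these shifts in the changes of the p53 targets was not tested. In bulk RNA, fewer cells of a kind and less RNA per cell cannot be told apart.

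A further 55 of 56 listed p53 targets were tested in each of the 4 comparisons. In the knockdown 17 rose and 4 fell, with FAM210B at 0.89 ± 0.097, CYFIP2 at -0.87 ± 0.17, the death receptor EDA2R at 0.81 ± 0.091 and the transporter SLC12A4 at 0.77 ± 0.071. At 1 h 16 rose and 7 fell, with SAC3D1 at 0.67 ± 0.10, the KIT ligand KITLG at -0.49 ± 0.087, ORAI3 at 0.49 ± 0.14 and the polymerase subunit REV3L at -0.41 ± 0.054. At 24 h 13 rose and 15 fell, close to the 22.1% and 24.8% of all genes, with the fatty acid enzyme CROT at -1.92 ± 0.065 and the antiproliferative BTG1 at 1.04 ± 0.035. In R219S 14 rose and 26 fell, with SERPINB5 at -2.64 ± 0.46, CYFIP2 at -2.14 ± 0.59, CROT at -1.62 ± 0.073 and the growth factor PGF at -1.45 ± 0.21. The median log2 fold change of this list was 0.19, 0.064, -0.066 and -0.13 in that order.

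Of 24 regulators of p53 tested, 5 rose and 3 fell in the knockdown, 6 rose and 5 fell at 1 h, 8 rose and 5 fell at 24 h, and 16 rose and 4 fell in R219S. In that order the higher calls were 20.8%, 25%, 33.3% and 66.7% of the 24, beside 11.3%, 10.7%, 22.1% and 30.5% of all genes. The lower calls were 12.5%, 20.8%, 20.8% and 16.7%, beside 12.3%, 9.12%, 24.8% and 31.6% of all genes. The p53 relative TP73 was called higher by 0.91 ± 0.22 in the knockdown, 0.50 ± 0.071 at 1 h and 0.46 ± 0.074 at 24 h. The ribosomal proteins RPL23 and RPL11, which bind MDM2, rose by 0.59 ± 0.064 and 0.52 ± 0.063 in the knockdown. The checkpoint kinase CHEK2 fell by 1.13 ± 0.092 at 24 h. In R219S the ubiquitin ligase TRIM24 changed by -0.49 ± 0.051, the ligase COP1 by 0.46 ± 0.053 and the kinase HIPK2 by -0.35 ± 0.042.

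Cell cycle genes that DREAM represses fell in the knockdown, where CDKN1A rose, and also at 24 h and in R219S, where it fell. All 20 tested fell in the knockdown, among them FOXM1 at -0.78 ± 0.069 and CENPE at -0.67 ± 0.080. At 1 h 2 rose and 1 fell. At 24 h 19 fell and CHEK1 rose, with MYBL2 at -2.24 ± 0.087, MCM5 at -1.74 ± 0.053 and CDK1 at -1.45 ± 0.046. In R219S 14 fell and 1 rose, led by CDC25C at -1.06 ± 0.081. CDKN1A in the same comparisons changed by 0.73, 0.09, -0.17 and -0.31.

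ATF4, the factor of the amino acid and unfolded protein response, shares targets with p53, among them SESN2 and PMAIP1. Of 14 genes on the ATF4 list, which counts ATF4 itself, 11 fell and 1 rose in the knockdown, where SESN2 and PMAIP1 fell too. Among them were SLC7A11 at -1.88 ± 0.25, CHAC1 at -1.75 ± 0.30 and XBP1 at -1.02 ± 0.070. ATF4 mRNA changed by -0.29 ± 0.062 in the knockdown, -0.11 ± 0.028 at 1 h, -0.05 ± 0.036 at 24 h and 0.11 ± 0.037 in R219S. All but the 24 h change were called. At 1 h 6 rose and 3 fell, and SESN2 and PMAIP1 were called higher, both of which DESeq2 did not call. At 24 h 9 fell and 2 rose, with the transcription factor CEBPB at 1.64 ± 0.087 and the folate enzyme MTHFD2 at -1.28 ± 0.051. In R219S 6 rose and 7 fell, with DDIT4 at 1.44 ± 0.052 and VLDLR at -1.63 ± 0.074. Whether ATF4 had a part in the changes of SESN2 and PMAIP1 was not tested.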

How the data were processed

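RNA was sequenced from 14 libraries of 22Rv1 cells. The deposited tables hold raw read counts per gene, which the authors made with STAR, featureCounts and build hg19, per the submitters' processing notes, which also name DESeq2. Annotation, strand setting and versions are not given in the sources used here, so antisense and closely related genes cannot be told apart, and no hg19 coordinates are given. Per-sample columns not used numbered 0. The 0 h counts were identical in both dTAG tables for 57905 features.

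The tool was edgeR 4.0.16 (R 4.3.3), run for each comparison on the libraries it names (filterByExpr filter, TMM, glmQLFit with robust estimation, quasi-likelihood F test), and joint fits tested 24 h against 1 h and the differences between changes. Genes were called at an adjusted p under 0.05, with Benjamini-Hochberg adjustment across every gene in a fit. The SE is the size of the log2 fold change divided by the square root of F. The fits were tested on simulated counts. Alternatives were DESeq2 1.42.0 (Wald test, or its size factors in edgeR), no filter, at least 1 CPM in 2 libraries, an offset from GC content and transcript length (a value for 96.4% to 98.8% of genes and all 31 members), a replicate block, and each library left out. Replicate pairs differed beyond counting noise in every group, with a chi-square per degree of freedom of 2.04 to 4.04 in 6 groups and 11.8 in shFOXA1.

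The members and lists were chosen with earlier results of these data known. Values in every library are given for members called in at least 1 of the 4 main comparisons with an absolute log2 fold change of at least 0.5, and for MDM2, CDKN1A and FOXA1. From each further list at most 4 called genes per comparison were named, by size of change, and some genes that this rule names are not reported here. ATF4 was named as the factor of its list and not by size of change. GADD45A and marker or early genes with library values were chosen after their values were seen.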

Additional observations from a re-analysis of the deposited data

Results flagged for a closer look

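The change at 24 h of degradation differed from the change under the FOXA1 hairpin, by a test of the difference itself, for 19 of the 31 genes. On the log2 scale the 24 h change was below the knockdown change for PLK2 at -1.72, FAS at -1.22, AEN at -1.01, BTG2 at -1.01, PLK3 at -0.98, CDKN1A at -0.89, GDF15 at -0.74, SPATA18 at -0.67, RPS27L at -0.59, FDXR at -0.49, CCNG1 at -0.44, DDB2 at -0.40, TP53INP1 at -0.37, GADD45A at -0.34, ZMAT3 at -0.31, MDM2 at -0.27 and POLH at -0.27. It was above it for PMAIP1 at 0.83 and PERP at 0.86. With each library left out in turn, 12 of the 17 lower calls and both higher calls held, and POLH lost its call in each fit but the one that left out the second shFOXA1 library.

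Between 1 h and 24 h of degradation 16 of the 31 genes differed. The 24 h level was below the 1 h level, on the log2 scale, for FAS at -0.79, GADD45A at -0.57, SESN2 at -0.53, GDF15 at -0.52, AEN at -0.49, PLK3 at -0.43, TRIAP1 at -0.42, BTG2 at -0.41, RPS27L at -0.40, FDXR at -0.38, PMAIP1 at -0.26, CDKN1A at -0.25, POLH at -0.24, BAX at -0.22 and DDB2 at -0.16. It was above it for PERP at 0.18. With each library left out in turn, 13 of the 15 lower calls and the call of PERP held, and PMAIP1 and DDB2 lost theirs in some of these fits.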

How the results depend on the processing

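With 2 libraries per group, spread is estimated from few degrees of freedom. Over the 31 genes and 8 fits, 2918 gene values kept their side of the threshold under the alternatives, 149 lost a call and 86 gained one. A further 8, called in the main fit or the alternative, reversed direction. Values called in neither fit were counted as kept even where their direction changed. Leaving out each library in turn moved the higher calls to between 4 and 17 in the knockdown, 5 and 8 at 1 h, 0 and 1 in R219S, 1 and 2 for 24 h against 1 h, and 1 and 2 for R219S minus knockdown. A lone library left in a group is assumed to vary like the others. DESeq2 gave 3 higher and 4 lower calls at 1 h, and 0 higher calls in R219S. At least 1 CPM in 2 libraries gave 3 higher calls for 24 h against 1 h. The offset for GC content and length gave 8 higher calls at 24 h and 4 for 24 h against 1 h, and with the replicate block it gave 8 and 5. That offset, without and with the block, reversed CDKN1A at 1 h (-0.0152 and -0.0152), CCNG1 at 24 h (0.18 and 0.18), RRM2B at 24 h (0.14 and 0.14) and CCNG1 for 24 h against 1 h (0.15 and 0.15). The cause was not tested. Before it, Spearman's rho of log2 fold change with GC content across genes was 0.137 in the knockdown, 0.323 at 1 h, 0.17 at 24 h and -0.013 in R219S.

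Over all genes, 2156 higher and 2350 lower calls in the knockdown became 1141 and 1280 without shCtrl replicate 1, 860 and 853 without replicate 2, and 3256 and 3537 without shFOXA1 replicate 1. At 1 h 2081 and 1769 became 1346 and 1082 or 1234 and 998 without the first or second 1 h library, and 1001 and 871 with DESeq2.

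The replicate block alone gave 11 higher and 3 lower calls in the knockdown, 9 and 5 at 1 h, 4 and 17 at 24 h, and 2 and 19 in R219S. Same-numbered libraries correlated at -0.041 to 0.0583, so the numbers were not taken as pairing.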
